A study of Rattus norvegicus with 8 samples.

Results

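Liver transcripts were compared between rats given dexamethasone alone and rats given vehicle, 8 h after injection. Dexamethasone is a synthetic glucocorticoid. The comparison used 4 of the 8 arrays of the series, 2 from the dexamethasone group and 2 from the vehicle group, chosen by their labels. All rats were male Sprague-Dawley animals of 180 to 200 g, and their age, feeding state and time of day at injection are not given in the sources used here. The dexamethasone group received dexamethasone into muscle (1.5 mg/kg) and saline into the peritoneum, and the vehicle group received saline at both sites. The remaining 4 arrays came from rats given dexamethasone (1.5 mg/kg) with AICAR (0.7 g/kg into the peritoneum), and from rats given AICAR with saline into muscle. AICAR switches on AMPK, a kinase that senses a shortage of cellular energy. These arrays are used here to estimate the spread and to look up the dexamethasone response in animals that the main comparison did not use. The study asked how AMPK acts on the metabolic effects of glucocorticoids.

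Glucocorticoids bind the glucocorticoid receptor, which enters the nucleus and raises or lowers the transcription of genes by binding DNA or other transcription factors. In liver they are known to raise glucose output and the use of amino acids for it, to increase fat storage, and to restrain inflammatory signalling. They also reset liver clocks and, over longer times, lower the release of plasma proteins that carry hormones. These points are background and not results of the present data.

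RNA was measured on Affymetrix arrays, and each of the 31042 probe sets tested has 1 deposited value per array on the log2 scale, so a difference of 1 is a doubling. In what follows a level is such a value and a difference is dexamethasone minus vehicle, with its standard error after the ± sign (limma, n = 2 arrays per group). Levels of different genes are not compared, because each probe set has its own brightness. A gene is called, and said to have risen or fallen, at a Benjamini-Hochberg adjusted p under 0.05 from limma. Where the arrays of a called gene are said not to overlap between groups, this describes the values and adds no support to the call. The 2 dexamethasone arrays correlated at r = 0.997 across probe sets and the 2 vehicle arrays at r = 0.997, against 0.986 to 0.987 between the groups. Nothing in the labels ties the 2 arrays of a group to separate rats, so the p-values measure only how far these arrays spread, and that spread may be technical. The actin control read higher at its 3′ end than at its 5′ end, by 2.04 and 2.03 on the dexamethasone arrays, against 2.26 and 2.20 on the vehicle arrays, and GAPDH by 0.43 and 0.40 against 0.61 and 0.60. The groups did not overlap in either measure of RNA quality, and its part in the results was not tested. Of 13 hepatocyte markers 1 rose and 2 fell, and when any of the 4 arrays was left out 0 or 1 rose and 0 or 1 fell. Their mean level was 13.1 and 13.1 on the dexamethasone arrays, against 13.2 and 13.2 on the vehicle arrays, and the albumin gene Alb differed by 0.03 ± 0.07 with no call, its sign turning under cyclic loess scaling (-0.0095). Liver is a mixed tissue, so fewer cells of a type and less RNA per cell cannot be told apart in any result on cell type genes.

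Some genes of the RT1 family stood apart by group in a way that did not follow the 2 agents. The RT1 genes encode the major histocompatibility proteins of the rat, which differ widely between individuals of an outbred stock. Of 18 measured RT1 genes 11 fell and 1 rose, and 8 changed at least 2-fold. Of the 11 that fell, 6 were also called lower after dexamethasone plus AICAR relative to AICAR, 3 were called higher (RT1-N2, RT1-CE12 and RT1-T24-4) and 2 were not called (RT1-A and RT1-CE10), names chosen after their values were seen. The class Ib gene RT1-N2 read 3.84 and 3.51 on the dexamethasone arrays, against 7.14 and 6.95 on the vehicle arrays. It averaged 8.72 after dexamethasone plus AICAR and 4.41 after AICAR, so it was low in dexamethasone livers without AICAR and high in those with it. Its mean after dexamethasone lay below 3.84, the smallest of the 25th percentiles of the arrays, where the size of a change is uncertain. The class I gene RT1-CE12 read 9.23 and 8.996 on the dexamethasone arrays, against 11.24 and 11.55 on the vehicle arrays, with means of 11.78 after the combination and 9.43 after AICAR. Its levels did not overlap between the dexamethasone and vehicle arrays. The class II accessory gene RT1-DMa ran the other way, at 8.37 and 8.33 on the dexamethasone arrays, against 6.22 and 6.14 on the vehicle arrays. Inherited or other differences between the animals of the groups were not tested. They cannot be told apart from treatment for these probe sets, and the design gives no way to separate them from treatment for any other gene.

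Many liver genes differed in level between the dexamethasone and vehicle groups, with 22.7% of all genes called. Each of the 55 gene lists examined held at least 1 called gene, which that share makes likely for lists of 9 to 62 genes. Of 14217 genes, each represented by its brightest probe set, 1190 rose (8.37%) and 2033 fell (14.3%). Over probe sets, 18.4% were called, 2692 higher (8.67%) and 3034 lower (9.77%). The share of calls that were higher was 47.0%, and 57.5% when each array was centred on its brighter probe sets (3374 higher and 2496 lower). Of the 15566 probe sets brighter than the median, tested alone, 2656 were called higher and 3369 lower, larger shares than over all probe sets. Many lists hold bright genes, and the shares of all genes set beside them are not matched for level. The count of 5726 called probe sets was 3738 without vehicle array 2, the lowest count with 1 array left out. At least 2-fold changes were found for 144 genes that rose and 227 that fell, and at least 4-fold changes for 30 and 34. The median difference over all genes was -0.03.

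The largest rises included genes of quite different roles. Ces2c, which encodes a carboxylesterase that cleaves esters and many drugs, read 13.07 and 13.004 on the dexamethasone arrays, against 7.17 and 6.70 on the vehicle arrays. The dexamethasone arrays were far above the vehicle arrays, with a difference of 6.10 ± 0.14 (68.6-fold, adjusted p = 7.59e-08). Zfp354a, a zinc finger repressor of transcription, read 11.54 and 11.52 on the dexamethasone arrays, against 7.29 and 7.20 on the vehicle arrays, a difference of 4.29 ± 0.07 (19.5-fold, adjusted p = 5.66e-08). Eif4ebp3, whose product binds the cap-binding factor eIF4E and holds back translation, read 11.77 and 11.84 on the dexamethasone arrays, against 8.34 and 8.36 on the vehicle arrays, a difference of 3.46 ± 0.07. Both genes had nearly equal values within each group and no overlap between groups. Mfsd2a, which encodes a carrier of lysophospholipids with polyunsaturated fatty acids, read 9.90 and 9.998 on the dexamethasone arrays, against 6.54 and 6.55 on the vehicle arrays (10.6-fold higher, adjusted p = 7.46e-08). Noct, which encodes the rhythmic phosphatase nocturnin, read 8.24 and 8.08 on the dexamethasone arrays, against 4.73 and 4.81 on the vehicle arrays (10.5-fold higher). Each of these genes was well separated between the groups. Slc5a11, a sodium-coupled transporter of inositol, read 7.54 and 7.54 on the dexamethasone arrays, against 3.08 and 2.98 on the vehicle arrays. Its vehicle level lay below 3.84, so the size of its rise is uncertain. Others among the 15 largest rises were the ferlin family gene Fer1l5 (3.34 ± 0.10), the endocytic receptor gene Ly75 (3.05 ± 0.12), Spmip11, named for a sperm microtubule protein (2.97 ± 0.11), and the syntabulin gene Sybu (2.78 ± 0.08). Rbp7, A2m, Isg15, Mt2A and Usp2 are described with their functions below.

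The receptor is known to bind a palindrome built from AGAACA, and the 250 bases before each gene's start in RefSeq (GRCr8) were searched for this motif on both strands, with no overlap with another motif considered. It was present in 17.1% of all promoters in the table, 11.5% of those of measured genes, 11.9% of those of genes that rose and 10.7% of those of genes that fell. The motif followed 3 bases later by its reverse complement, TGTTCT, was present in 1 promoter of 27457, and that gene was not measured. Among the 15 largest rises 10 had a promoter in the table and 1 held the motif, Spmip11, at chr7:131599727-131599976 on the + strand. It is shown with the motif in capitals, which starts 229 bases before the gene's start.
Spmip11 promoter: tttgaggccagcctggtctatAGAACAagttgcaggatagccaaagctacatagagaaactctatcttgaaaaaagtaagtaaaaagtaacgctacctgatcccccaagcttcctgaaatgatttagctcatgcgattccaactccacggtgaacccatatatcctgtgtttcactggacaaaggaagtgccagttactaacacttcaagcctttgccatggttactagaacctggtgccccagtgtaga
The match describes these letters only, and its share among genes that rose was close to that among all measured genes.

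**Figure D1:**
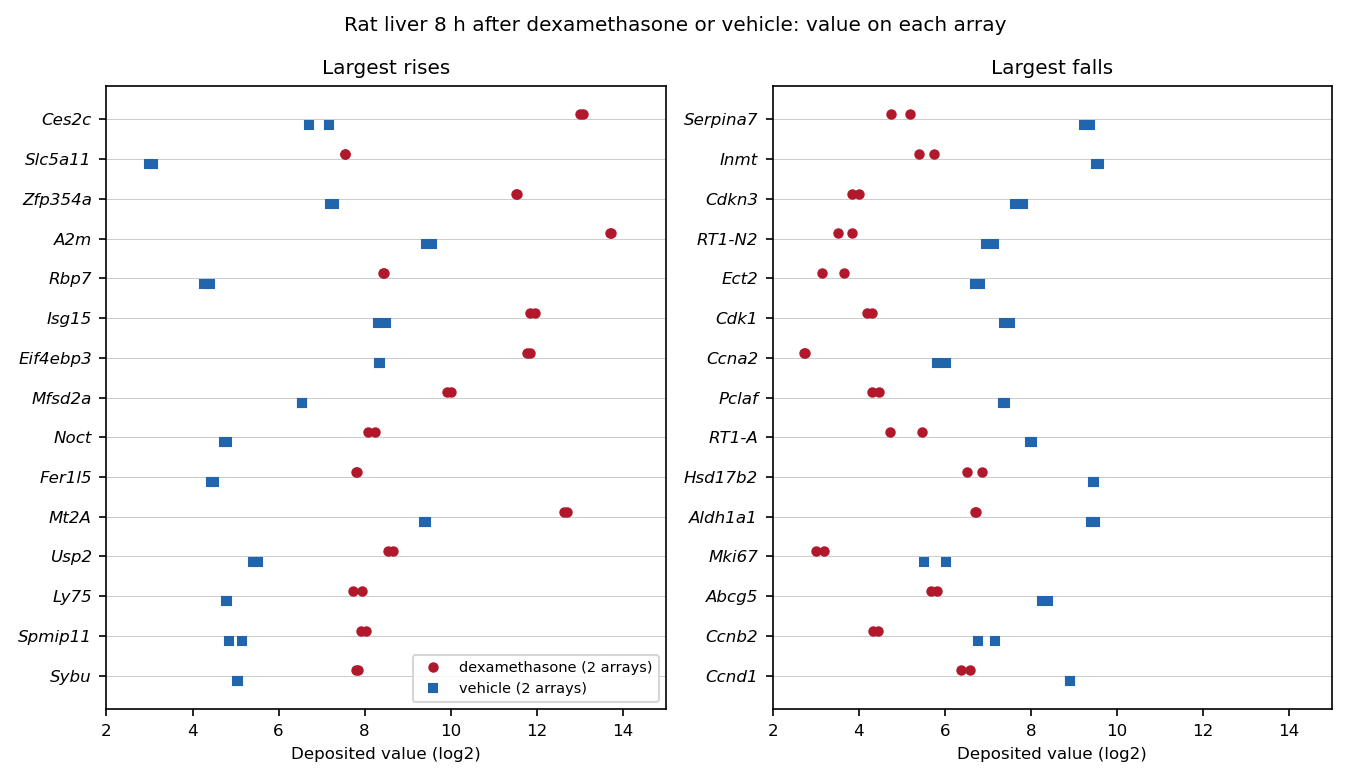
Deposited log2 value on each array (x axis) of the 15 genes with the largest rises (left) and the 15 with the largest falls (right), dexamethasone as red circles above vehicle as blue squares. The 2 arrays of a group lie close together and no gene shown overlaps between groups, which follows from choosing genes with large called differences.

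The largest falls were in a hormone carrier, a methyltransferase, cell division genes and sterol and steroid handling. Serpina7, which encodes thyroxine-binding globulin of plasma, read 4.76 and 5.18 on the dexamethasone arrays, against 9.38 and 9.24 on the vehicle arrays (20.2-fold lower, adjusted p = 3.22e-07). Inmt, an N-methyltransferase of indolamines, read 5.40 and 5.76 on the dexamethasone arrays, against 9.59 and 9.52 on the vehicle arrays (15.7-fold lower). Hsd17b2, which oxidises estradiol and testosterone to weaker steroids, read 6.87 and 6.53 on the dexamethasone arrays, against 9.46 and 9.44 on the vehicle arrays, and fell by 2.75 ± 0.11. In all 3 genes the groups were separated by more than 2 log2 units. Aldh1a1, which makes retinoic acid from retinal, read 6.71 and 6.72 on the dexamethasone arrays, against 9.41 and 9.50 on the vehicle arrays. It was 6.66-fold lower, with no overlap. Beyond cell division genes and RT1 genes, the 15 largest falls also held the sterol exporter gene Abcg5 and the cyclin gene Ccnd1, both given below.

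**Figure D2:**
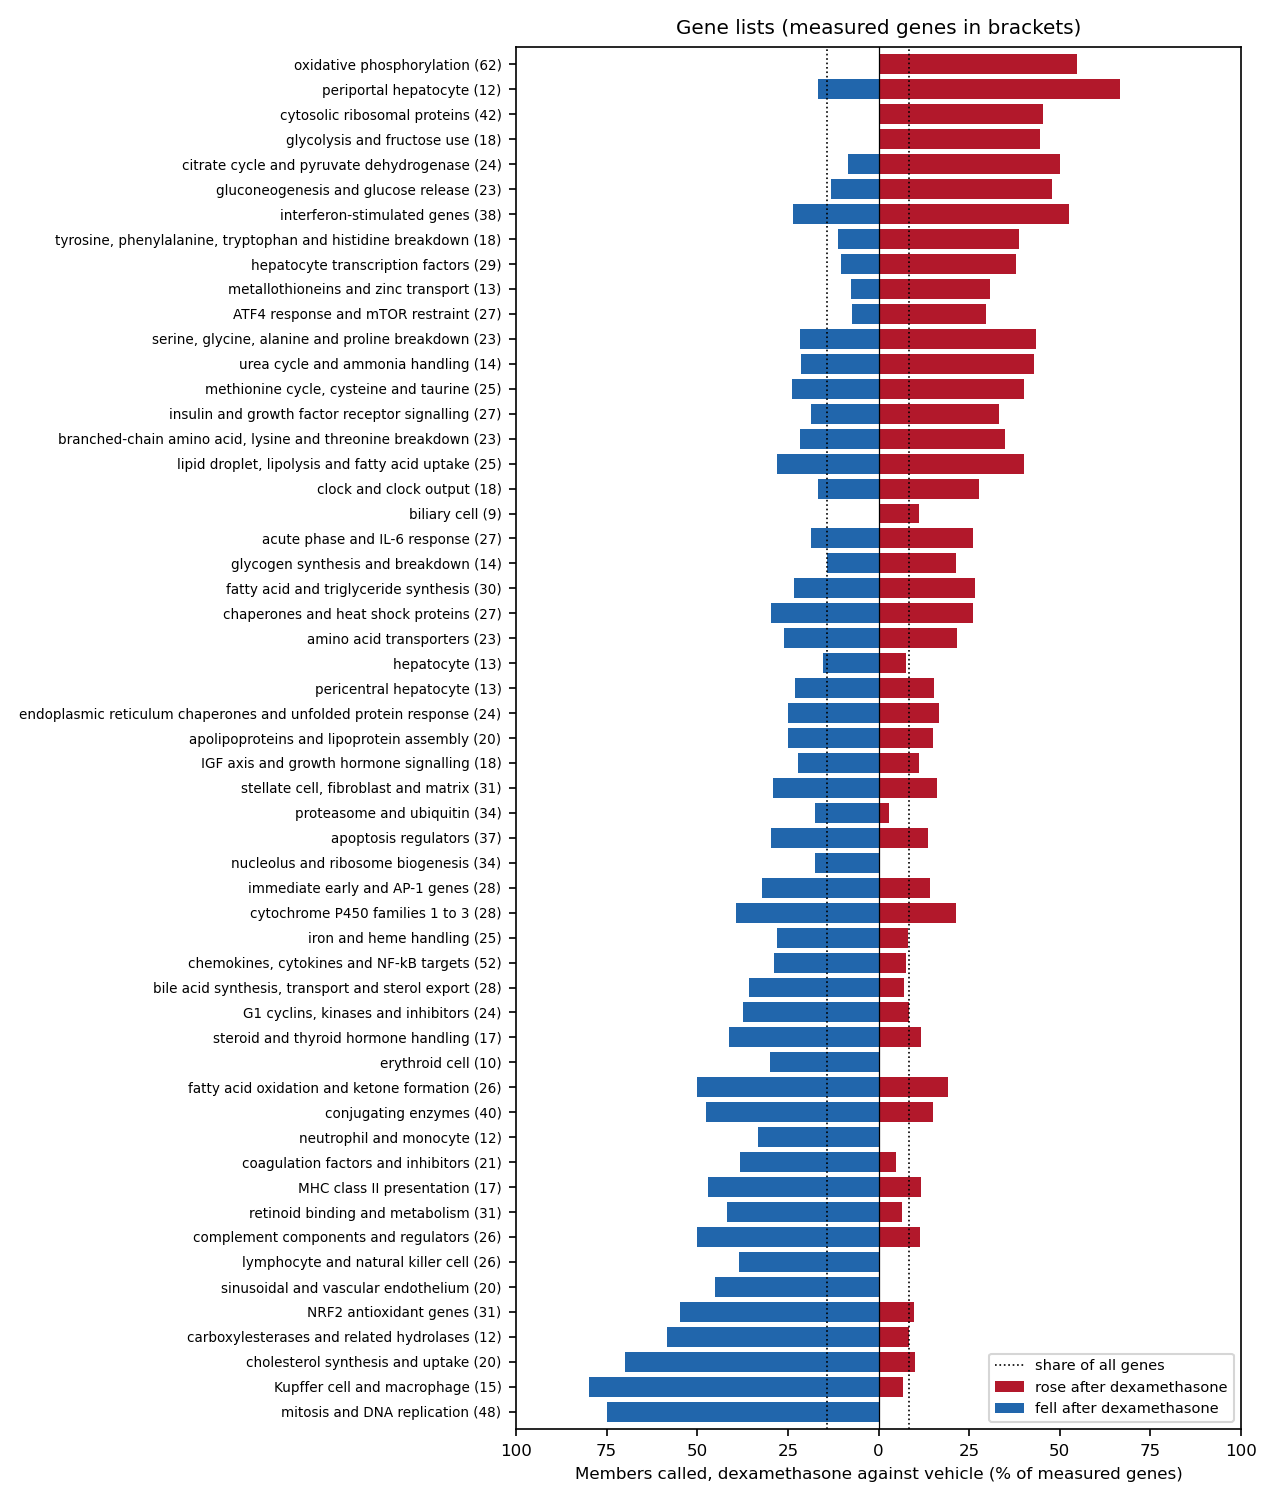
Share of measured members of each gene list that rose (red, right) or fell (blue, left) after dexamethasone relative to vehicle, in percent, with the number measured in brackets and dotted lines at the shares of all genes (8.37% higher, 14.3% lower). Mitochondrial, ribosomal and glucose lists lie at the top and macrophage, sterol and mitosis lists at the bottom. The shares of all genes are not matched to the lists for level, and brighter probe sets were called more often.

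Several genes of glucose production rose, among them steps that feed carbon in and that release glucose. Of 23 measured genes 11 rose and 3 fell, with a median of 0.14. Gpt, the alanine aminotransferase that turns alanine into pyruvate, read 11.31 and 11.43 on the dexamethasone arrays, against 9.41 and 9.39 on the vehicle arrays (3.91-fold higher). Slc37a4, the carrier of glucose 6-phosphate into the endoplasmic reticulum, read 11.17 and 11.26 on the dexamethasone arrays, against 9.93 and 9.99 on the vehicle arrays (2.38-fold higher). Both were clear of the vehicle range. Mdh1, the cytosolic enzyme of the malate shuttle, rose by 0.91 ± 0.07 and Fbp1, fructose 1,6-bisphosphatase, by 0.49 ± 0.07. Foxo1, a transcription factor that activates glucose production genes when insulin is low, rose by 1.17 ± 0.10. Pdk4, the kinase that switches off pyruvate dehydrogenase and is usually high in fasting, fell by 1.15 ± 0.08, with levels of 8.09 and 8.12 on the dexamethasone arrays, against 9.31 and 9.21 on the vehicle arrays. Mdh1 and Fbp1 were chosen after their values were seen.

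Glycolysis and fructose genes showed rises and no fall: 8 of 18 rose and 0 fell (median 0.20). Pfkfb1, the liver enzyme that sets fructose 2,6-bisphosphate, read 10.75 and 10.89 on the dexamethasone arrays, against 8.74 and 8.92 on the vehicle arrays, a difference of 1.99 ± 0.09. Slc2a5, the fructose transporter, rose by 1.44 ± 0.12, the fructose pathway kinase gene Tkfc by 0.84 ± 0.07 and the enolase gene Eno1 by 0.77 ± 0.08. The glycogen list was mixed, with 3 of 14 genes higher and 2 lower (median -0.08). Gys2, liver glycogen synthase, read 9.50 and 9.59 on the dexamethasone arrays, against 8.76 and 8.78 on the vehicle arrays, and Ppp1r3b, which brings a phosphatase to glycogen, read 11.17 and 11.19 on the dexamethasone arrays, against 10.62 and 10.58 on the vehicle arrays. Both rose, by 0.78 ± 0.07 and 0.58 ± 0.07, and in neither did the groups overlap. Ugp2, which makes the UDP-glucose used for glycogen, fell by 0.72 ± 0.07, and Gyg1, the primer protein glycogenin, fell by 0.65 ± 0.08.

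Fatty acid synthesis split by step. Of 30 synthesis genes 8 rose and 7 fell, with a median of -0.02. Acaca, acetyl-CoA carboxylase, read 9.92 and 9.92 on the dexamethasone arrays, against 8.39 and 8.45 on the vehicle arrays, and Fasn, fatty acid synthase, read 10.69 and 10.67 on the dexamethasone arrays, against 9.69 and 9.62 on the vehicle arrays. Lpin1, which makes diacylglycerol from phosphatidate, read 10.34 and 10.44 on the dexamethasone arrays, against 7.94 and 7.98 on the vehicle arrays (5.39-fold higher). The lipogenic nuclear protein gene Thrsp rose by 1.52 ± 0.08. All 4 genes were higher on both dexamethasone arrays than on either vehicle array. The desaturases of polyunsaturated fatty acids moved the other way. Fads1, the delta-5 desaturase, read 10.37 and 10.39 on the dexamethasone arrays, against 12.20 and 12.18 on the vehicle arrays (3.51-fold lower), and Fads2, the delta-6 desaturase, read 7.82 and 7.96 on the dexamethasone arrays, against 9.29 and 9.42 on the vehicle arrays (2.76-fold lower). Scd, the desaturase of saturated fatty acids, was not called at -0.13 ± 0.07 (adjusted p = 0.257). Malic enzyme, Me1, which supplies NADPH for synthesis, fell by 1.05 ± 0.07, and the acyl-CoA synthetase gene Acsl5 fell by 1.18 ± 0.09. Fads2, Me1 and Acsl5 were chosen after their values were seen.

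Lipid droplet genes moved both ways, with 10 of 25 higher and 7 lower (median 0.04). Cidea, a droplet protein that enlarges lipid droplets, read 8.70 and 8.93 on the dexamethasone arrays, against 6.14 and 6.28 on the vehicle arrays (6.1-fold higher, adjusted p = 7.93e-07). Lpl, lipoprotein lipase, which frees fatty acids from circulating triglyceride, read 8.25 and 8.20 on the dexamethasone arrays, against 6.63 and 6.52 on the vehicle arrays (3.14-fold higher). The groups were apart by more than 1.5 log2 units in both. Plin2, the main coat protein of liver droplets, rose by 0.86 ± 0.08, Cidec by 0.55 ± 0.08 and the triglyceride lipase gene Pnpla2 by 0.74 ± 0.07. Cd36, a fatty acid uptake receptor, fell by 0.60 ± 0.11. In the lipoprotein list 3 of 20 rose and 5 fell, the falls numbering 3 without dexamethasone array 1, 3 without dexamethasone array 2, 3 without vehicle array 1 and 2 without vehicle array 2. Mttp, which loads lipid onto apolipoprotein B, rose by 0.43 ± 0.07 and Tm6sf2, a lipoprotein lipidation gene, by 0.57 ± 0.08. Pltp, the phospholipid transfer protein, fell by 1.05 ± 0.11. Cidec was chosen after its values were seen.

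Many fatty acid oxidation genes were lower, and the entry step was higher. Of 26 genes 13 fell and 5 rose, with a median of -0.22. The rises numbered 2 without dexamethasone array 2, 3 without vehicle array 1 and 3 without vehicle array 2. Cpt1a, which passes long-chain fatty acids into mitochondria, read 11.33 and 11.45 on the dexamethasone arrays, against 10.02 and 9.93 on the vehicle arrays (2.67-fold higher). The hormone gene Fgf21 read 7.18 and 7.18 on the dexamethasone arrays, against 5.75 and 5.97 on the vehicle arrays. The groups did not overlap in either gene. Ehhadh, the bifunctional enzyme of peroxisomal oxidation, read 8.49 and 8.62 on the dexamethasone arrays, against 10.66 and 10.69 on the vehicle arrays (4.35-fold lower). The fatty acid hydroxylase genes Cyp4a3 and Cyp4a1 fell by 1.52 ± 0.08 and 0.62 ± 0.07, and Bdh1, which interconverts the ketone bodies, fell by 1.16 ± 0.09. The Cyp4a genes are known targets of the fatty acid receptor PPARα. Ppara, which encodes it, rose by 0.61 ± 0.12, and its call was lost without dexamethasone array 2 and without vehicle array 2. Cyp4a1, Bdh1 and Ppara were chosen after their values were seen.

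Cholesterol synthesis genes fell in 14 of 20 cases and 2 rose (median -0.46). Cyp51, which demethylates lanosterol, read 10.22 and 10.27 on the dexamethasone arrays, against 11.61 and 11.60 on the vehicle arrays. Msmo1, the next methyl oxidase of the pathway, fell by 1.26 ± 0.07 and the isoprenoid isomerase gene Idi1 by 1.08 ± 0.08. Cyp51 was lower by 2.57-fold with no overlap. The 2 rises were Insig1, which holds back the sterol-sensing factor SREBP (0.72 ± 0.07), and the sterol ketoreductase gene Hsd17b7 (0.73 ± 0.07), both chosen after their values were seen. Sterol and bile acid handling also changed, with 10 of 28 genes lower and 2 higher (median -0.12). Abcg5, a partner in the pump that sends cholesterol into bile, read 5.67 and 5.82 on the dexamethasone arrays, against 8.40 and 8.27 on the vehicle arrays (6.02-fold lower), and its partner Abcg8 read 3.55 and 3.88 on the dexamethasone arrays, against 5.17 and 4.76 on the vehicle arrays and fell by 1.25 ± 0.18. The dexamethasone mean of Abcg8 was below 3.84, which leaves the size of its fall uncertain. The organic anion uptake gene Slco1a4 fell by 2.21 ± 0.07, and Akr1d1, a reductase of bile acid synthesis, by 1.03 ± 0.08. The 2 rises were the bile acid synthesis enzymes Cyp7a1, which controls the rate of the classic route, and Cyp27a1. Cyp7a1 read 10.29 and 10.29 on the dexamethasone arrays, against 9.43 and 9.51 on the vehicle arrays, and Cyp27a1 read 11.85 and 11.89 on the dexamethasone arrays, against 11.16 and 11.22 on the vehicle arrays. Nr0b2, which encodes the bile acid feedback repressor SHP, was not called at 0.23 ± 0.09 (adjusted p = 0.103).

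**Figure D3:**
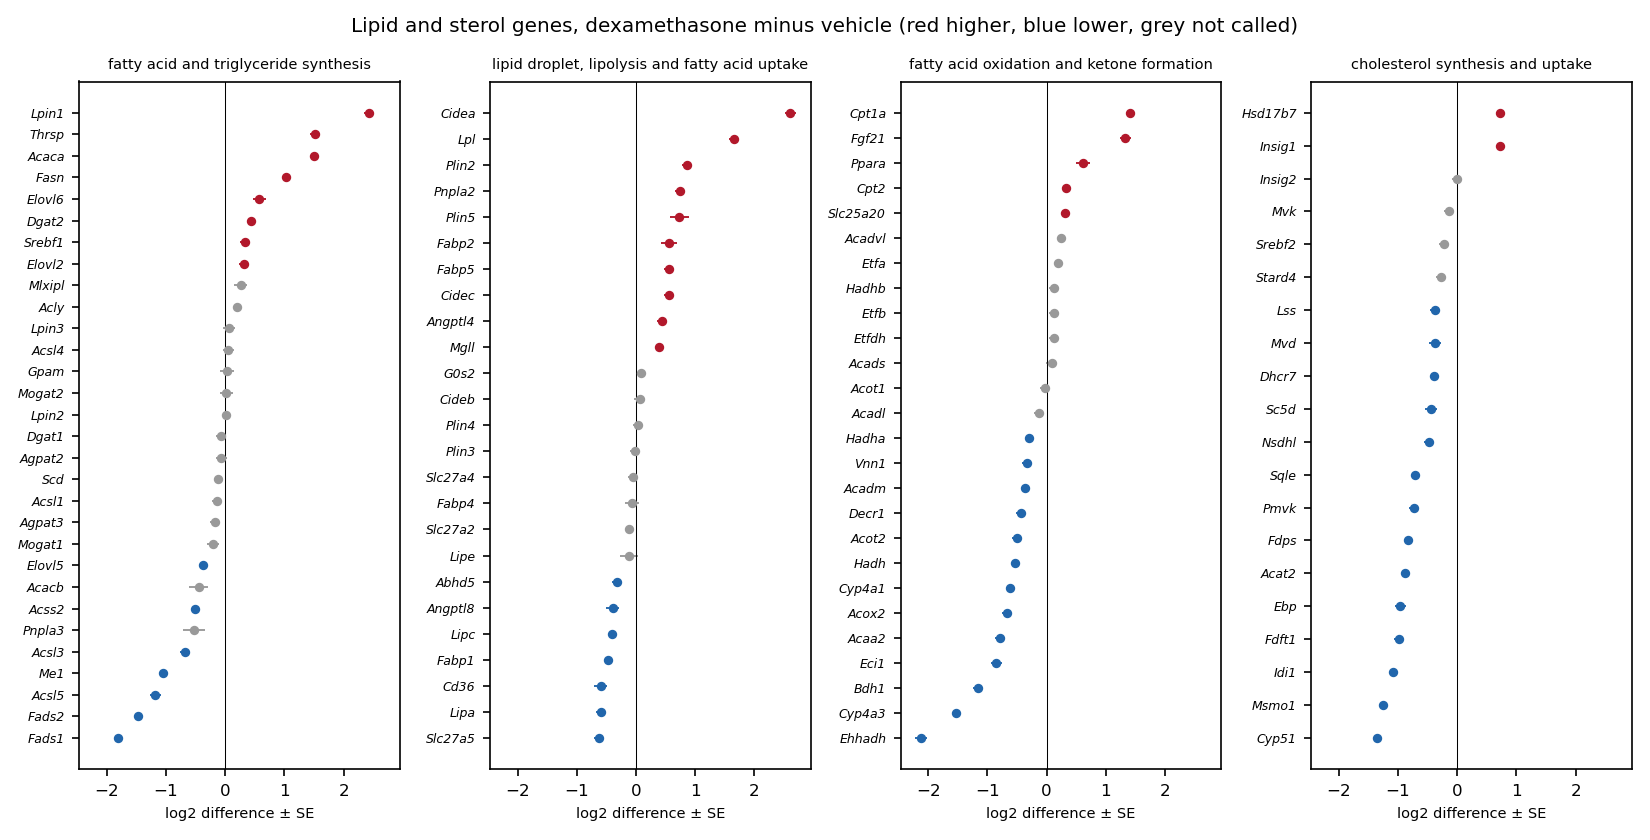
Difference on the log2 scale, dexamethasone minus vehicle, with its standard error (bars) for every measured gene of 4 lipid lists, red where higher, blue where lower and grey where not called. Lpin1, Cidea and Cpt1a lead their panels, and Fads1, Ehhadh and Cyp51 are at the bottom of theirs.

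Several genes of amino acid breakdown were higher. Of 18 genes that break down tyrosine, phenylalanine, tryptophan and histidine 7 rose and 2 fell (median 0.14), the falls numbering 1 without dexamethasone array 1 and 1 without vehicle array 2. Acmsd, which diverts tryptophan breakdown away from NAD synthesis, read 9.16 and 9.12 on the dexamethasone arrays, against 6.83 and 6.82 on the vehicle arrays (4.97-fold higher). Kmo, which lies upstream in the kynurenine route, read 8.78 and 8.92 on the dexamethasone arrays, against 10.17 and 10.23 on the vehicle arrays (2.55-fold lower). These 2 enzymes of 1 route thus moved in opposite directions. Homogentisate dioxygenase, Hgd, rose by 0.95 ± 0.10, the hydroxyphenylpyruvate dioxygenase gene Hpd by 0.69 ± 0.07 and tryptophan dioxygenase, Tdo2, by 0.75 ± 0.07. Hal, which starts histidine breakdown, was not called at 0.02 ± 0.07. Of 23 genes of serine, glycine, alanine and proline breakdown 10 rose and 5 fell, the falls numbering 3 without dexamethasone array 1, 2 without vehicle array 1 and 3 without vehicle array 2. Sds, serine dehydratase, read 9.52 and 9.55 on the dexamethasone arrays, against 7.34 and 7.41 on the vehicle arrays (4.46-fold higher). The proline oxidase gene Prodh rose by 1.10 ± 0.08. Hpd was chosen after its values were seen.

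Branched-chain, lysine and threonine breakdown gave 8 rises and 5 falls among 23 genes, the falls numbering 3 without vehicle array 2. At the enzyme that oxidises branched-chain keto acids, the subunit gene Bckdhb rose by 1.08 ± 0.07 and the inhibitory kinase gene Bckdk by 0.82 ± 0.09, while the activating phosphatase gene Ppm1k fell by 0.82 ± 0.07. In the urea cycle list 6 of 14 rose and 3 fell, the rises numbering 3 without vehicle array 1 and 3 without vehicle array 2. Ass1, argininosuccinate synthase, read 13.70 and 13.76 on the dexamethasone arrays, against 12.80 and 12.86 on the vehicle arrays, and rose by 0.90 ± 0.07. Arg1, arginase, rose by 0.48 ± 0.07 and the glutamate dehydrogenase gene Glud1 by 0.74 ± 0.07. Otc, ornithine transcarbamylase, and Oat, ornithine aminotransferase, fell by 0.44 ± 0.07 and 0.65 ± 0.07. Amino acid transporter genes rose in 5 and fell in 6 of 23 cases. Slc38a2, which imports small neutral amino acids, read 9.78 and 9.79 on the dexamethasone arrays, against 8.34 and 8.25 on the vehicle arrays (2.81-fold higher), and the taurine transporter gene Slc6a6 fell by 0.88 ± 0.07. Otc was chosen after its values were seen.

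The methyl group cycle changed at many steps. Of 25 measured genes of methionine, cysteine and taurine metabolism 10 rose and 6 fell (median 0.14). Gnmt, which uses S-adenosylmethionine to methylate glycine, read 12.98 and 13.09 on the dexamethasone arrays, against 11.80 and 11.83 on the vehicle arrays (2.33-fold higher). Bhmt, which remakes methionine with betaine, read 13.58 and 13.56 on the dexamethasone arrays, against 12.40 and 12.36 on the vehicle arrays (2.29-fold higher), and Ahcy, which splits S-adenosylhomocysteine, rose by 1.05 ± 0.07. Nnmt, which methylates nicotinamide, read 11.19 and 11.16 on the dexamethasone arrays, against 9.27 and 9.32 on the vehicle arrays (3.69-fold higher). In these 3 transferase genes both dexamethasone arrays were above both vehicle arrays by more than 1 log2 unit. The first enzyme of transsulfuration, Cbs, rose by 0.80 ± 0.07 and the sulfide oxidation gene Ethe1 by 0.81 ± 0.08. Creatine synthesis, a large consumer of methyl groups, was lower: Gatm fell by 0.99 ± 0.12 and Gamt by 0.41 ± 0.07. The taurine synthesis gene Csad fell by 0.78 ± 0.07. Ahcy, Cbs, Ethe1, Gatm, Gamt and Csad were chosen after their values were seen.

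Many genes of mitochondrial respiration rose, by small amounts. Of 62 subunits of oxidative phosphorylation 34 rose and 0 fell, and the median was 0.26. A positive difference was found for 58 of them, against 6293 of all 14217 genes. The rises numbered 21 without dexamethasone array 2 and 19 without vehicle array 1. Ndufv2, a core subunit of complex I, read 11.70 and 11.77 on the dexamethasone arrays, against 10.86 and 10.87 on the vehicle arrays, and Cyc1, cytochrome c1 of complex III, read 12.04 and 11.91 on the dexamethasone arrays, against 11.28 and 11.20 on the vehicle arrays. The differences were 0.87 ± 0.07 and 0.74 ± 0.08, larger than the spread between arrays. In the citrate cycle list 12 of 24 rose and 2 fell (median 0.28). Pdhb, a subunit of pyruvate dehydrogenase, rose by 0.92 ± 0.07, the isocitrate dehydrogenase gene Idh2 by 0.73 ± 0.07 and Ogdh by 0.56 ± 0.07. Mitochondrial chaperones rose beside them: Hspd1 by 0.65 ± 0.07, Hspa9 by 0.68 ± 0.09 and Hspe1, chosen after its values were seen, by 0.55 ± 0.08.

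Many ribosomal protein genes also rose, by small amounts. Of 42 measured genes 19 rose and 0 fell (median 0.22), and 41 had a positive difference, against 6293 of all 14217 genes. The rises numbered 3 without dexamethasone array 2, 5 without vehicle array 1 and 8 without vehicle array 2 and 5 when the 4 arrays compared were fitted alone. Rpl4 read 12.31 and 12.32 on the dexamethasone arrays, against 11.73 and 11.80 on the vehicle arrays and rose by 0.55 ± 0.07. Of 34 factors that assemble ribosomes in the nucleolus 0 rose and 6 fell, a share of 17.65% near the 14.3% of all genes. Of these factors 29 had a negative difference, against 7924 of all 14217 genes, and the median was -0.18. The falls numbered 3 without vehicle array 1. Rrs1, an assembly factor, fell by 0.61 ± 0.08. RNA quality moved with the group, as given above, and its part in changes of this size was not tested.

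Protein folding and stress genes were mixed. Of 27 chaperone and heat shock genes 7 rose and 8 fell, the falls numbering 3 without dexamethasone array 1, 3 without vehicle array 1 and 4 without vehicle array 2. The small heat shock protein gene Cryab rose by 0.86 ± 0.10. Of 24 genes of the endoplasmic reticulum 4 rose and 6 fell (median 0.04). Edem1, which sends misfolded glycoproteins to degradation, read 13.04 and 12.96 on the dexamethasone arrays, against 11.15 and 10.96 on the vehicle arrays (3.85-fold higher), and Herpud1, another degradation gene, read 11.27 and 11.36 on the dexamethasone arrays, against 9.89 and 10.05 on the vehicle arrays (2.53-fold higher). Hyou1, a chaperone of the same compartment, fell by 0.83 ± 0.07. In the list of ATF4 targets and brakes on mTOR 8 of 27 rose and 2 fell, the rises numbering 5 without dexamethasone array 2 and 5 without vehicle array 1 and the falls 1 without dexamethasone array 1, 4 without dexamethasone array 2 and 1 without vehicle array 2. Trib3, a pseudokinase that binds AKT, rose by 1.20 ± 0.11 and the serine synthesis gene Phgdh by 0.93 ± 0.10. Ddit4, an mTOR brake, was not called at 0.09 ± 0.09. Of 34 proteasome and ubiquitin genes 6 fell, a share of 17.65% near the 14.3% of all genes. In this list 1 gene rose (2.94%, against 8.37% of all genes). The falls included the catalytic subunits of the immunoproteasome, Psmb9 at 7.60 and 7.85 on the dexamethasone arrays, against 9.08 and 9.02 on the vehicle arrays, Psmb8 (-0.96 ± 0.08) and Psmb10 (-0.83 ± 0.10), and the activator gene Psme1 (-0.53 ± 0.07). The 1 rise was the core subunit gene Psmb1 (0.28 ± 0.08), chosen after its values were seen, and its call was lost when any of the 4 arrays compared was left out.

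**Figure D4:**
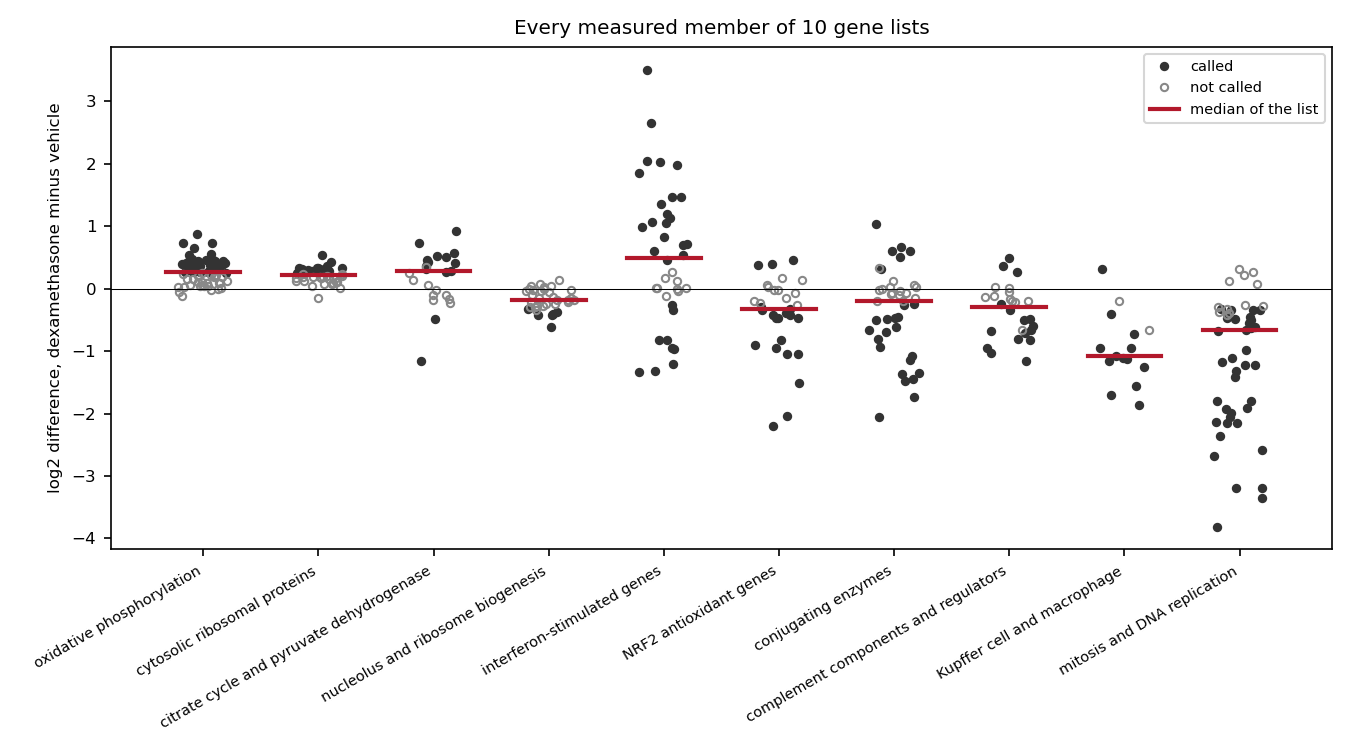
Log2 difference, dexamethasone minus vehicle (y axis), of every measured member of 10 gene lists, filled where called and open where not, with the list median as a red bar. Respiratory and ribosomal genes form tight bands just above 0, interferon-stimulated genes spread widely, and mitosis genes reach below -3.

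Insulin and growth signalling genes moved at several points. Of 27 genes 9 rose and 5 fell, the falls numbering 3 without dexamethasone array 1 and 2 without vehicle array 2. Dusp1, a phosphatase that switches off MAP kinases, read 11.03 and 11.07 on the dexamethasone arrays, against 9.50 and 9.58 on the vehicle arrays (2.85-fold higher), whereas Dusp6, a phosphatase of the ERK branch, fell by 1.03 ± 0.08. Errfi1, a brake on the EGF receptor, rose by 0.89 ± 0.07, and the insulin receptor substrate gene Irs3 fell by 0.93 ± 0.09. The substrates Irs1 and Irs2 were not called, at -0.11 ± 0.11 and 0.14 ± 0.09. In the growth hormone and IGF list 2 of 18 rose and 4 fell (median -0.19), the rises numbering 1 without dexamethasone array 2, 1 without vehicle array 1 and 1 without vehicle array 2. Igfals, which keeps IGF complexes in plasma, read 8.31 and 8.51 on the dexamethasone arrays, against 9.90 and 9.73 on the vehicle arrays (2.65-fold lower), and the feedback inhibitor gene Socs2 fell by 0.73 ± 0.07 and the receptor gene Ghr by 0.53 ± 0.07. Igfbp1, an IGF-binding protein that insulin holds down, read 10.26 and 10.31 on the dexamethasone arrays, against 8.79 and 8.88 on the vehicle arrays (2.74-fold higher). Errfi1 and Irs3 were chosen after their values were seen.

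Handling of steroid and thyroid hormones was lower in 7 of 17 genes and higher in 2. Serpina6, the plasma carrier of corticosteroids, read 10.73 and 10.86 on the dexamethasone arrays, against 12.35 and 12.35 on the vehicle arrays (2.93-fold lower), beside the fall of the thyroxine carrier Serpina7 given above. Both carriers were lower on each dexamethasone array than on either vehicle array. Hsd11b2, which inactivates glucocorticoids, fell by 1.02 ± 0.09, while Hsd11b1, which activates them and is the liver form, was not called at 0.05 ± 0.07. Sult1e1, which sulfates estrogens, fell by 1.48 ± 0.07. Hsd17b6, an oxidoreductase of steroids and retinol, rose by 1.31 ± 0.07. Hsd11b2 and Hsd17b6 were chosen after their values were seen.

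Clock genes changed in part. Of 18 measured genes 5 rose and 3 fell, the falls numbering 1 without dexamethasone array 1 and 1 without vehicle array 2. Usp2, a rhythmic deubiquitinase gene of liver, read 8.54 and 8.66 on the dexamethasone arrays, against 5.41 and 5.52 on the vehicle arrays (8.78-fold higher, adjusted p = 1.24e-07). The repressors Per1, Per2 and Cry1 rose by 0.94 ± 0.12, 0.96 ± 0.08 and 0.85 ± 0.08, and Bhlhe40 by 1.35 ± 0.10. Nr1d2, the nuclear receptor REV-ERBβ, fell by 0.93 ± 0.08. The activator gene Bmal1 and the output gene Dbp were not called, at 0.10 ± 0.07 and 0.22 ± 0.12. Among 29 hepatocyte transcription factors 11 rose and 3 fell, the falls numbering 1 without dexamethasone array 1 and 5 without dexamethasone array 2. Klf13, a zinc finger factor, read 6.57 and 6.78 on the dexamethasone arrays, against 5.04 and 4.80 on the vehicle arrays (3.37-fold higher), and its relative Klf9 read 10.56 and 10.61 on the dexamethasone arrays, against 9.45 and 9.42 on the vehicle arrays (2.22-fold higher). The drug-sensing receptors PXR and CAR, encoded by Nr1i2 and Nr1i3, rose by 1.03 ± 0.08 and 0.86 ± 0.08. Foxa1 rose by 0.94 ± 0.08 and Onecut1 by 0.78 ± 0.09, while Foxa3 fell by 0.71 ± 0.10. Cebpb rose by 0.91 ± 0.07 and Cebpd was not called, at -0.04 ± 0.09, a sign that turned under centring (0.0094). Of 28 immediate early and AP-1 genes 4 rose, numbering 2 without dexamethasone array 2 and 2 without vehicle array 1, and 9 fell, numbering 4 without dexamethasone array 1 and 5 without dexamethasone array 2. The RNA decay factor gene Zfp36 rose by 0.69 ± 0.08, and Sgk1, a kinase gene often raised by glucocorticoids, read 8.99 and 9.09 on the dexamethasone arrays, against 10.54 and 10.51 on the vehicle arrays, lower by 2.81-fold. Cry1, Nr1d2, Nr1i3, Onecut1 and Foxa3 were chosen after their values were seen.

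Drug metabolism genes fell more often than they rose. Of 28 genes of P450 families 1 to 3 and their reductase 6 rose and 11 fell (median -0.18). Por, the reductase that feeds electrons to these enzymes, read 9.68 and 9.96 on the dexamethasone arrays, against 7.91 and 8.02 on the vehicle arrays (3.61-fold higher), and Cyp1a1 read 7.35 and 7.43 on the dexamethasone arrays, against 4.67 and 4.88 on the vehicle arrays (6.13-fold higher). Cyp2a2 fell by 1.29 ± 0.07, Cyp2c7 by 1.16 ± 0.07 and Cyp2c23 by 0.98 ± 0.07. The main male form, Cyp2c11, was not called at -0.05 ± 0.07. Cyp3a23-3a1, a form often raised by dexamethasone in rats, fell by 0.57 ± 0.07, with levels of 12.21 and 12.12 on the dexamethasone arrays, against 12.74 and 12.74 on the vehicle arrays. Close relatives in these families can share probes, so the values of single members are uncertain. Of 40 conjugating enzymes 19 fell and 6 rose (median -0.19). The sulfotransferases split: Sult1c3 read 11.01 and 11.08 on the dexamethasone arrays, against 13.07 and 13.14 on the vehicle arrays (4.16-fold lower), and Sult1a1 read 13.75 and 13.76 on the dexamethasone arrays, against 12.71 and 12.72 on the vehicle arrays (2.06-fold higher). Neither gene overlapped between groups. The glutathione transferase gene Gstt3 fell by 1.36 ± 0.08. Of 12 carboxylesterases and related hydrolases 7 fell and 1 rose, the rise being Ces2c. Ces1d fell by 1.26 ± 0.08 and Ces1e by 1.06 ± 0.08. Cyp2c23, Cyp2c11, Cyp3a23-3a1, Sult1a1 and Gstt3 were chosen after their values were seen.

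Antioxidant genes that depend on NRF2 fell in 17 of 31 cases and rose in 3 (median -0.33). Osgin1, an oxidative stress response gene, read 8.35 and 8.35 on the dexamethasone arrays, against 10.53 and 10.56 on the vehicle arrays (4.58-fold lower), and the epoxide hydrolase gene Ephx1 read 10.13 and 10.17 on the dexamethasone arrays, against 12.20 and 12.16 on the vehicle arrays (4.09-fold lower). The factor itself, Nfe2l2, read 9.41 and 9.46 on the dexamethasone arrays, against 10.53 and 10.45 on the vehicle arrays, and fell by 1.05 ± 0.07. All 3 were lower on both dexamethasone arrays. The aldehyde reductase gene Akr7a3 fell by 1.50 ± 0.09, Gpx1, glutathione peroxidase, by 0.94 ± 0.07, and Gclm, a subunit of glutathione synthesis, by 0.82 ± 0.10. In the retinoid list 13 of 31 fell and 2 rose. The rises were Rbp7, a cell retinol-binding protein gene, at 8.43 and 8.44 on the dexamethasone arrays, against 4.41 and 4.26 on the vehicle arrays, and the retinol dehydrogenase gene Rdh16, at 10.70 and 10.64 on the dexamethasone arrays, against 8.97 and 9.02 on the vehicle arrays. The falls included Aldh1a1, given above, Cyp26b1, which degrades retinoic acid (-1.72 ± 0.15), and Adh7, an alcohol dehydrogenase of retinol (-1.40 ± 0.11). Gpx1, Gclm and Adh7 were chosen after their values were seen.

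Plasma protein genes did not move as 1 class. Of 27 acute phase genes 7 rose and 5 fell, the falls numbering 3 without dexamethasone array 1 and 3 without vehicle array 2. A2m, the protease inhibitor α2-macroglobulin and a major acute phase protein of the rat, read 13.73 and 13.69 on the dexamethasone arrays, against 9.56 and 9.43 on the vehicle arrays (18.6-fold higher). Orm1, α1-acid glycoprotein, read 14.20 and 14.14 on the dexamethasone arrays, against 12.91 and 12.95 on the vehicle arrays (2.36-fold higher), and the IL-6 receptor gene Il6r rose by 1.06 ± 0.08. The groups were far apart in A2m and by more than 1 log2 unit in Orm1. Haptoglobin, Hp, and C-reactive protein, Crp, were not called, at 0.21 ± 0.07 and -0.08 ± 0.07. Of 21 coagulation genes 8 fell and 1 rose, the falls numbering 4 without dexamethasone array 1, 4 without dexamethasone array 2, 5 without vehicle array 1 and 3 without vehicle array 2. Plasma prekallikrein, Klkb1, read 10.55 and 10.70 on the dexamethasone arrays, against 12.18 and 12.18 on the vehicle arrays (2.94-fold lower), and the 1 rise was F5, coagulation factor V (0.56 ± 0.07). Of 26 complement genes 13 fell and 3 rose (median -0.30). The late component gene C9 fell by 0.80 ± 0.07 and the protease gene C1s by 0.83 ± 0.09, whereas C6 rose by 0.50 ± 0.07. C1qa, which macrophages make, fell by 1.15 ± 0.09. In iron and heme handling 2 of 25 rose and 7 fell, the falls numbering 3 without dexamethasone array 1 and 3 without vehicle array 2. The iron exporter gene Slc40a1 fell by 0.47 ± 0.07, and hepcidin, Hamp, was not called at -0.26 ± 0.09 (adjusted p = 0.091). Among 13 metallothionein and zinc genes 4 rose, numbering 2 without dexamethasone array 2 and 2 without vehicle array 1, and 1 fell. Mt2A read 12.70 and 12.64 on the dexamethasone arrays, against 9.42 and 9.39 on the vehicle arrays (9.64-fold higher). C9 and C6 were chosen after their values were seen.

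Interferon-stimulated genes moved in both directions and by large amounts. Of 38 measured genes 20 rose and 9 fell, with a median of 0.49. Isg15, a ubiquitin-like protein, read 11.84 and 11.97 on the dexamethasone arrays, against 8.31 and 8.49 on the vehicle arrays (11.3-fold higher, adjusted p = 1.24e-07). Mx2, an antiviral GTPase, read 9.21 and 8.99 on the dexamethasone arrays, against 7.19 and 6.94 on the vehicle arrays, and Ifi44 read 8.79 and 8.62 on the dexamethasone arrays, against 6.73 and 6.59 on the vehicle arrays. The groups were apart by more than 1.5 log2 units in all 3. Usp18, which removes ISG15 and damps the receptor, rose by 1.98 ± 0.07, Ifit3 by 1.86 ± 0.10, the antiviral gene Oasl by 1.47 ± 0.09 and the transcription factor gene Irf7 by 1.07 ± 0.08. These are classic targets of type I interferon. Of the falls, the GTPase gene Gbp2 read 5.51 and 5.82 on the dexamethasone arrays, against 7.02 and 6.98 on the vehicle arrays, the factor Irf1 fell by 0.82 ± 0.09, Ifitm1 by 1.20 ± 0.07 and Irf8 by 0.97 ± 0.12. Beside them, Kupffer cell and macrophage markers were lower, and their part in these falls was not tested. Usp18, Ifit3, Oasl, Irf7, Gbp2, Irf1, Ifitm1 and Irf8 were chosen after their values were seen.

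Resident macrophage genes were lower: 12 of 15 Kupffer cell markers fell and 1 rose, with a median of -1.07 and a mean level of 7.63 and 7.76 on the dexamethasone arrays, against 8.65 and 8.65 on the vehicle arrays. Cd5l, a secreted macrophage protein, read 7.94 and 7.93 on the dexamethasone arrays, against 9.85 and 9.75 on the vehicle arrays (3.65-fold lower), and Clec4f, a lectin of rodent Kupffer cells, fell by 0.96 ± 0.09. The 1 rise was Lyz2, lysozyme (0.32 ± 0.07), whose call was lost without dexamethasone array 2 and without either vehicle array. Of 17 class II presentation genes 8 fell and 2 rose, the rises numbering 1 without dexamethasone array 1, 1 without dexamethasone array 2 and 1 without vehicle array 2. For the RT1 genes among them, inherited differences between animals cannot be told apart from treatment. Cd74, the invariant chain, read 7.87 and 7.87 on the dexamethasone arrays, against 9.46 and 9.49 on the vehicle arrays (3.04-fold lower). Of 52 chemokine, cytokine and NF-kB target genes 15 fell and 4 rose, the rises numbering 2 without vehicle array 1. The neutrophil chemokine gene Cxcl1 fell by 1.83 ± 0.13, Ccl6 fell by 1.59 ± 0.08 and Cxcl12 by 1.54 ± 0.08, while Tsc22d3, the glucocorticoid-induced leucine zipper gene, rose by 2.05 ± 0.10. Of 26 lymphocyte markers 10 fell and 0 rose, the falls numbering 5 without dexamethasone array 2 and the rises 1 without vehicle array 2. The B cell gene Ms4a1 fell by 1.23 ± 0.13. Of 20 endothelial markers 9 fell and 0 rose (median -0.27), with the scavenger receptor gene Stab2 lower by 2.06-fold and the growth factor gene Bmp2 by 2.12-fold. Clec4f and Lyz2 were chosen after their values were seen.

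Stellate cell and matrix genes moved both ways. Of 31 genes 9 fell and 5 rose (median -0.02). Lox, which cross-links collagen, read 8.97 and 9.05 on the dexamethasone arrays, against 11.07 and 10.99 on the vehicle arrays (4.07-fold lower). Dcn, the matrix proteoglycan decorin, read 7.75 and 7.81 on the dexamethasone arrays, against 6.09 and 5.98 on the vehicle arrays (3.35-fold higher). Neither overlapped between the groups. Lrat, which esterifies retinol in stellate cells and was chosen after its values were seen, fell by 0.83 ± 0.08. Among periportal hepatocyte markers 8 of 12 rose and 2 fell, the rises numbering 5 without dexamethasone array 1, 4 without vehicle array 1 and 5 without vehicle array 2. The periportal falls numbered 1 when any of the 4 arrays was left out. Among pericentral markers 2 of 13 rose and 3 fell, and glutamine synthetase, Glul, was not called at -0.12 ± 0.08. Of 12 neutrophil and monocyte markers 4 fell and 0 rose. The means of 4 of these 12 lay below 3.84 in both groups, where the size of a change is uncertain. The falls numbered 3 when any of the 4 arrays compared was left out, and the call of Camp was lost each time. Of 10 erythroid markers 3 fell and 0 rose. The shares that fell were 33.3% and 30.0%, against 14.3% of all genes. Of 9 biliary markers 0 fell and 1 rose, the biliary rises numbering 2 without dexamethasone array 1.

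Cell division genes were lower. Of 48 mitosis and DNA replication genes 36 fell and 0 rose (median -0.67). Cdk1, the kinase that drives mitosis, read 4.32 and 4.20 on the dexamethasone arrays, against 7.53 and 7.38 on the vehicle arrays (9.17-fold lower), and Ccnb2, its cyclin, read 4.45 and 4.33 on the dexamethasone arrays, against 6.77 and 7.16 on the vehicle arrays (5.97-fold lower). Pclaf, a replication clamp factor, read 4.31 and 4.48 on the dexamethasone arrays, against 7.34 and 7.40 on the vehicle arrays (7.89-fold lower). In each, both dexamethasone arrays were lower than both vehicle arrays by more than 2 log2 units. Of 24 genes of the G1 phase 9 fell and 2 rose, the falls numbering 5 without dexamethasone array 1, 4 without dexamethasone array 2, 4 without vehicle array 1 and 4 without vehicle array 2. The rises numbered 1 when any of the 4 arrays was left out. Ccnd1, cyclin D1, read 6.37 and 6.59 on the dexamethasone arrays, against 8.91 and 8.92 on the vehicle arrays (5.4-fold lower), and the inhibitor gene Cdkn1a, which encodes p21, read 8.83 and 8.82 on the dexamethasone arrays, against 7.42 and 7.57 on the vehicle arrays (2.5-fold higher). Of 37 apoptosis regulators 11 fell and 5 rose, the falls numbering 7 without vehicle array 2. The death receptor gene Fas fell by 1.06 ± 0.14.

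The same agent was also given together with AICAR, and the values of those 4 arrays do not enter the differences above. Both sets of calls still share 1 estimate of each probe set's spread, made over all 8 arrays. With the 4 compared arrays fitted alone, 4283 probe sets were called for dexamethasone against vehicle. Of the 2692 probe sets that dexamethasone alone raised, 1486 (55.2%) were called higher after dexamethasone plus AICAR relative to AICAR, against 15.9% of all probe sets, and 220 were called lower. Of the 3034 that it lowered, 1648 (54.3%) were called lower, against 14.9% of all, and 295 were called higher. For those that changed at least 2-fold, the shares called in the same direction were 72% of 293 and 81.7% of 312. The dexamethasone difference itself depended on AICAR for 4858 probe sets (15.6%) by the interaction test of limma, a count between 2910 and 3991 when 1 array was left out, and lowest without dexamethasone plus AICAR array 1 (2910), dexamethasone plus AICAR array 2 (3041) and AICAR array 1 (3130).

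Ces2c, Eif4ebp3, Cidea and Usp2 rose in both settings, with AICAR by 5.10 ± 0.14, 3.07 ± 0.07, 2.61 ± 0.09 and 2.84 ± 0.08. With AICAR, 18.7% of all genes rose and 19.4% fell. The list medians had the same sign in both settings for 43 of 55 lists and the opposite sign for 12. Some lists share genes and some medians were small, such as 0.02 and 0.03 for clock genes, so the count only describes the lists. Respiratory genes had a median of 0.35 with AICAR, and 40 of 62 rose. Mitosis genes had a median of -0.67 and 37 of 48 fell. Fatty acid oxidation genes, with a median of -0.22 after dexamethasone alone, had 0.28 with AICAR, where 13 of 26 rose and 3 fell. The median of chaperone genes was -0.13 after dexamethasone alone and 0.40 with AICAR, where 19 of 27 rose and 1 fell. For the nucleolar factors it was -0.18 and 0.33, with 21 of 34 higher and 2 lower with AICAR. Lipogenic genes ran the other way: Lpin1 differed by -0.77 ± 0.09 with AICAR, Thrsp by -1.81 ± 0.08, Acaca by -0.80 ± 0.07 and Fasn by -0.75 ± 0.07. Levels in the 4 groups show this for Lpin1, at 7.59 after dexamethasone plus AICAR and 8.36 after AICAR, against means of 10.39 after dexamethasone and 7.96 after vehicle. The interaction was -3.20 for Lpin1 (adjusted p = 2.63e-06). A group of genes was raised by dexamethasone alone and not called with AICAR, among them Sybu (0.03 ± 0.08), Oas1b (0.09 ± 0.09) and Cpt1a (0.08 ± 0.08). The interactions were -2.75 for Sybu, -2.56 for Oas1b and -1.34 for Cpt1a, each called (adjusted p = 2.99e-06, 7.55e-06 and 0.000119). Oas1b had a vehicle mean below 3.84. Serpina7 fell in both settings, by less with AICAR (-2.21 ± 0.13).

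**Figure D5:**
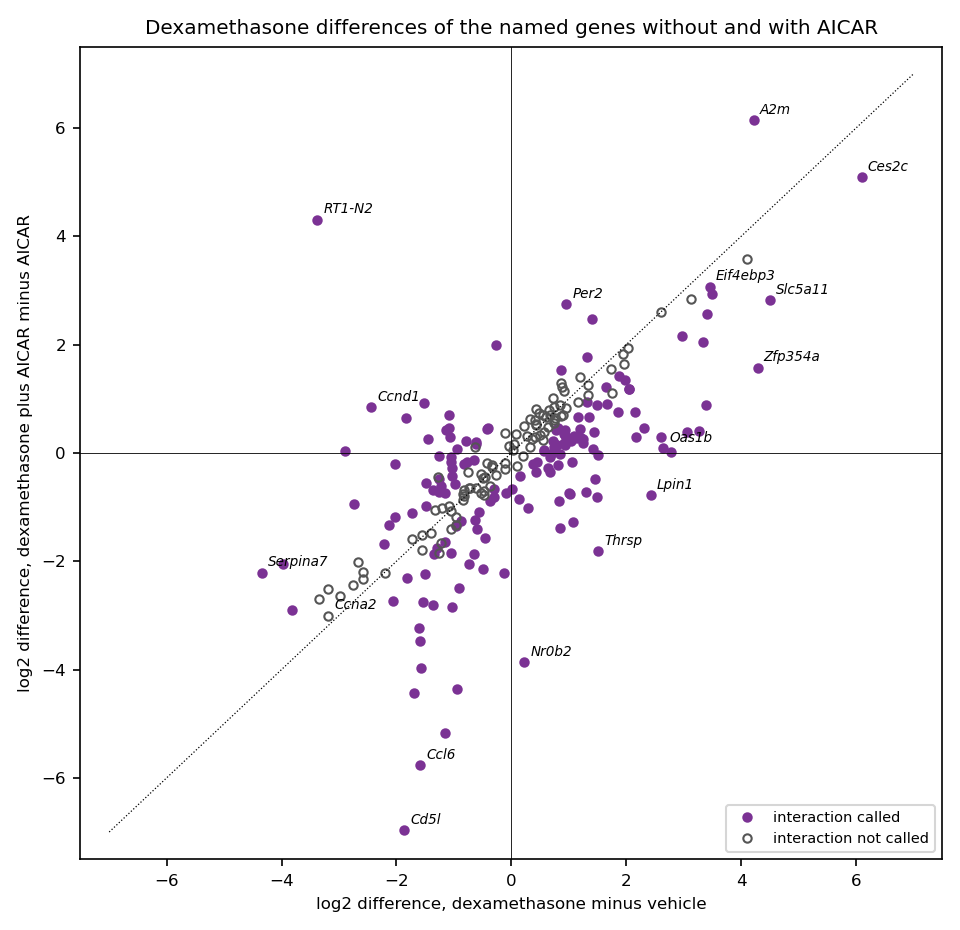
Each point is 1 of the genes named by the rule: its log2 difference for dexamethasone minus vehicle (x axis) and for dexamethasone plus AICAR minus AICAR (y axis), filled where the interaction was called. Points near the dotted line of equality, such as Eif4ebp3 and Ccna2, had similar differences in both settings, and Thrsp, Lpin1, RT1-N2 and Ccnd1 lie on opposite sides of 0.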

How the data were processed

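The authors deposited 1 value per probe set and array on the log2 scale, for which the submitters' processing notes name RMA and affy. Their versions are not given in the sources used here. The method sets all arrays to 1 distribution and compresses changes of dim probe sets. The base of the logarithm was read from the range of the values.

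The table held 31099 probe sets, and 57 array controls were left out. Only probe sets to which the platform annotation gives 1 symbol stood for genes, and each gene was represented by its brightest probe set. Differences were fitted with limma 3.58.1 in R 4.3.3 over all 8 arrays (4 residual and 4.58 prior degrees of freedom), with Benjamini-Hochberg adjustment over 31042 probe sets. No exact permutation test was run, since 2 arrays against 2 allow no two-sided p under 0.333. On simulated data of 31042 probe sets for this comparison the code recovered 32%, 86%, 98% and 100% of changes of 0.5, 1, 2 and 3, with 2 false calls among 160. The simulation changed 50 probe sets per size, far fewer than were called in the data, and shuffled spreads among probe sets. These shares check the code and do not measure recovery in the data. Figures and counts were made in Python 3.11.15.

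Gene lists were described by counts and medians. The comparison, the 55 lists and the genes were chosen with earlier results of these data known. The rule named the 15 largest rises and falls, up to 4 members per list with the largest called differences, and a fixed panel. Of 319 named genes 68 were added after their values were seen. Promoter letters came from RefSeq (GRCr8), and no coordinates of probe sets were used. The labels do not say whether deposited replicate numbers pair arrays between groups, and the main fit used no pairing. Deviations of same-numbered arrays from their group means correlated at 0.16 between the dexamethasone and vehicle groups, which cannot settle it. Alternative settings were the brighter probe sets alone, a trended prior, a replicate block, cyclic loess, centring, a fit of 4 arrays, gene means, a 2-fold minimum and leaving out each array.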

Additional observations from a re-analysis of the deposited data

Results flagged for a closer look

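The difference between dexamethasone with AICAR and AICAR was set against that between dexamethasone alone and vehicle for each named gene by the interaction test of limma, and 58 genes met the size of 1.5 on the log2 scale with a called interaction. Each value below is the dexamethasone difference with AICAR minus that without it, so a negative value means a lower difference when AICAR was present. Many named genes were chosen by their difference without AICAR, which enters with a minus sign. That choice pulls genes that dexamethasone alone raised towards negative values, and those it lowered towards positive ones. Over all 14217 genes the interaction was called for 2841 (20%), at any size. Causes were not tested.

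The value of the macrophage gene Cd5l, -5.10, was the most negative of the 58. Other genes of macrophages and leukocytes had -4.18 for Ccl6, -4.01 for C1qa, -3.69 for Clec4f, -3.41 for C1qc and -2.73 for Aif1. Further values of such genes were -2.40 for Adgre1, -1.83 for Cd68 and -1.58 for Ptprc. The complement gene Cfd had -1.81. The calls of C1qc and Cfd for dexamethasone alone were lost when any of the 4 arrays was left out. Cd5l averaged 7.93 after dexamethasone and 9.80 after vehicle, and 3.12 after dexamethasone plus AICAR and 10.09 after AICAR. Its mean after the combination lay below 3.84, as did those of Aif1 (3.74) and Adgre1 (2.72). The sizes of the values for these genes, and the rank of Cd5l, are therefore uncertain. Negative values were also found for class II presentation genes and for Gbp2, at -1.95 for RT1-Db1, -1.89 for RT1-Da, -1.63 for Cd74, -1.88 for RT1-DMa and -1.99 for Gbp2. For these RT1 genes too, inherited differences between animals cannot be told apart from treatment.

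Lipid and bile acid genes differed as well, with -4.09 for Nr0b2, -3.33 for Thrsp, -3.20 for Lpin1, -2.30 for Acaca, -2.08 for Scd, -1.78 for Fasn and -1.72 for Cyp7a1. Nr0b2 averaged 9.12 after dexamethasone and 8.90 after vehicle, and 4.83 after the combination and 8.69 after AICAR. Sterol and fatty acid genes with positive values were Idi1 (1.55) and Cyp4a3 (2.45).

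Among the genes that dexamethasone alone raised, the value was -2.86 for Mt2A, -1.74 for Mt1, -2.75 for Sybu, -2.71 for Zfp354a, -2.66 for Ly75, -2.56 for Oas1b, -2.49 for Noct, -2.35 for Bckdhb and -2.31 for Cyp1a1. It was -2.24 for Lcn2, -2.02 for Slc3a1, -1.94 for Igfbp1, -1.86 for Acmsd, -1.68 for Slc5a11, -1.65 for C6 and -1.56 for Dusp1. The clock receptors had -1.89 for Nr1d2 and -1.65 for Nr1d1, while Per2 had 1.80.

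Positive values, beside those above, were 1.56 for S100a9, 1.80 for S100a8, 1.71 for Nat8, 1.79 for Aldh1a1, 1.82 for Lox, 1.92 for Inmt, 1.93 for A2m, 2.13 for Serpina7, 2.25 for Hamp, 2.48 for Cxcl1 and 3.28 for Ccnd1. A2m rose in both settings and by more with AICAR. Its mean was 13.71 after dexamethasone and 13.76 after the combination, against 9.49 after vehicle and 7.61 after AICAR. The level of A2m after dexamethasone was thus similar with and without AICAR, and the level without dexamethasone was lower with AICAR. The RT1 genes that stood apart by group had 2.29 for RT1-T24-4, 2.94 for RT1-A, 4.63 for RT1-CE12 and 7.68 for RT1-N2, and inherited differences between animals cannot be told apart from treatment there.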

How the results depend on the processing

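The count of 5726 probe sets called for dexamethasone against vehicle was 6025 of 15566 brighter probe sets, 7279 with a trended prior, 5767 after cyclic loess, 5870 after centring and 4283 when the 4 arrays compared were fitted alone. It was 605 with a 2-fold minimum and 3666 of 14217 gene means, where fewer features were tested, and 3738 to 5303 when 1 array was left out. The interaction count of 4858 was 5681, 6558, 4675 and 4944 under the first 4 of these, 3326 for gene means and 2910 to 3991 when 1 array was left out. Whether replicate numbers shared by the groups mark pairs is not known, and with the replicate block the counts were 5448 and 4484. Of 301 called named genes 267 kept their call under every alternative, 34 lost it under at least 1, 15 of these when an array was left out and under no other setting, and 0 reversed. Signs turned in 5 genes that were not called: Alb after cyclic loess (-0.0095), Cebpd after centring (0.0094), Glul as a gene mean (0.032), and 3 genes when 1 array was left out, Cebpd (-0.136 to 0.0638), Hal (-0.0239 to 0.0637) and Irs1 (-0.251 to 0.036). The cause was not tested. With 2 arrays a group small changes can be missed. Changes of 0.5 on the log2 scale were recovered in 32% of simulated cases. The simulation gave 160 calls against 5726 in the data, which makes its adjusted threshold stricter. The 32% is therefore not the share recovered in the data.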
